A study of Homo sapiens with 3 samples.

Results

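The interleukin-1 family ligands and receptors measured in TK-10 cells were 10 genes of the 22439 genes named on the arrays: the ligands IL1A, IL1B, IL18, IL33 and IL36G, the receptor antagonist IL1RN, and the receptor chains IL1R1, IL1R2, IL1RAP and IL1RL1. The members were chosen by name, and every non-control probe whose RefSeq accession belonged to 1 of them was kept, which gave 15 probes, with several probes for 4 of the genes. The interleukin-1 cytokines are alarm signals of inflammation. IL-1α and IL-1β bind the receptor IL1R1, which pairs with the accessory chain IL1RAP and passes the signal through the adaptor MYD88 and IRAK kinases to NF-κB and the MAP kinases, while IL1RN blocks the receptor and IL1R2 takes up ligand without signalling. In the kidney, tubular epithelial cells can make IL-1 and IL-18 and can respond to IL-1.

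TK-10 is a human renal cell carcinoma line. The vehicle array held RNA of cells given 0.1% DMSO, the cordyceps array RNA of cells given cordyceps at 750 μg/mL according to the labels, and the sunitinib array RNA of cells given sunitinib at 10 μM, in each case after 48 h. The DMEM of all cells, vehicle included, held serum (10%), zinc sulfate at 16.7 μM, troglitazone at 10 μM, nicotinamide at 10 mM and 1% penicillin-streptomycin. The paper names cordycepin, an adenosine analogue from Cordyceps fungi, at another dose, so the agent is called cordyceps here, as in the labels. Sunitinib, an inhibitor of several receptor tyrosine kinases used against renal carcinoma, is not described in its array methods. Whether the treated cells also received DMSO is not stated in the sources used here.

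There was 1 array per condition, so no test across arrays, p-value or replicate error could be had. The error given is the one that the scanning software estimated for each spot. It covers no difference between cultures, RNA preparations or hybridizations. For bright probes the error was nearly a fixed share of the signal, as for IL1A (1213 ± 121 with vehicle, 1905 ± 191 with cordyceps). Limits of 95% drawn from it were thus close to 0.40 for many bright genes, a near-preset cut-off and not noise measured between arrays. For comparison, log2 ratios of genes measured on both arrays had a standard deviation of 0.58 with cordyceps and 0.69 with sunitinib, any treatment effect included. A level is the processed signal of a probe, in arbitrary units, and a ratio is the log2 difference between arrays after each array was set to the 75th percentile of its own signals. This percentile was 165 on the vehicle array, 138 on the cordyceps array and 78.2 on the sunitinib array. A gene was counted as higher or lower when its ratio passed 2-fold and 1 or both arrays of the comparison had its probe well above background.

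The labelled cell line was checked against its markers. Of 15 renal epithelial and renal carcinoma markers on the array, 13, 13 and 12 were well above background on the vehicle, cordyceps and sunitinib arrays, among them PAX8 and PAX2. CA9, a hypoxia-induced marker of clear cell carcinoma, and CDH1, the epithelial E-cadherin, were detected on none. The kidney cadherins CDH6 and CDH16 were 5.20-fold and 4.71-fold lower with cordyceps, larger ratios than those of the members there, and the water channel AQP1 was at least 2.11-fold lower with sunitinib. On the cordyceps array, a bright area covered 567 spots, and no probe of a member lay in it. On the sunitinib array 40 spots were marked by the same rule, and whether a member lay among them was not checked.

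Among the 5 members detected on all arrays, IL1A and IL1B differed most between the 2 treated arrays. They lie next to each other on chromosome 2, where 7 of the 10 members are found. IL1A, IL1B, IL37, IL36G, IL36A, IL36B, IL36RN, IL1F10 and IL1RN follow each other there without another protein gene of the reference table between them. IL1R2, IL1R1, IL1RL2, IL1RL1, IL18R1 and IL18RAP form another such row, while IL18 is on chromosome 11, IL1RAP on chromosome 3 and IL33 on chromosome 9. The 250 bases before the start sites of IL1A (chr2:112784494-112784743, minus strand) and IL1B (chr2:112836780-112837029, minus strand) are shown because these neighbours had the members' highest ratios on one treated array and the lowest on the other. They were taken from RefSeq on build GRCh38.p14 and read 5′ to 3′ on the gene's strand, and capitals mark matches to 4 searched motifs on either strand.
IL1A: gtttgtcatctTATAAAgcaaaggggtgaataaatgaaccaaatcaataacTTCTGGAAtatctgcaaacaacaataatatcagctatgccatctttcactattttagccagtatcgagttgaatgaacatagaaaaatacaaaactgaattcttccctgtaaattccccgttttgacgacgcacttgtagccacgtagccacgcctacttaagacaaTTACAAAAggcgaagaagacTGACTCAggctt
IL1B: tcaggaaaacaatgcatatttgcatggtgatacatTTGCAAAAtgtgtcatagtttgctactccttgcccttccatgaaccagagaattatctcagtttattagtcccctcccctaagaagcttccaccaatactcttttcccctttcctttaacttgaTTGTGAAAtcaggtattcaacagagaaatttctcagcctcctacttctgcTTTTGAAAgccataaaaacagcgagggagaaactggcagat
The motifs were TATA, searched as TATAAA, AP-1 as TGANTCA, C/EBP as TTNNGNAA, and NF-κB by its usual consensus. The IL1A window shown held 1 TATA match, which began at position −239 from the start site, 1 AP-1 match and 2 C/EBP matches. The IL1B window held 3 C/EBP matches. Among 35116 windows of this length, 10.7% held TATA, 6.6% AP-1, 33.2% C/EBP and 10.0% NF-κB. The matches are letters in a window and not binding sites, and the absence of a match says nothing of a factor. A start site further downstream is also listed for IL1A, and its window held 2 AP-1 matches, 1 C/EBP match and 0 TATA matches.

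IL1A encodes IL-1α, a cytokine that is active as its precursor and acts as an alarm signal when cells die. Its signal was 1213 ± 121 on the vehicle array, 1905 ± 191 on the cordyceps array and 82.1 ± 9.0 on the sunitinib array. The sunitinib array was far below the other 2, which lay closer together. With sunitinib, IL1A was 7.02-fold lower than with vehicle (log2 ratio −2.81, with a 95% limit of the reported error of 0.42). Only 78 of the 14912 genes compared had a lower ratio. With cordyceps, IL1A had a log2 ratio of 0.91 (95% limit 0.40). After scaling it was thus 1.87-fold higher, past the reported error and not past 2-fold. It passed 2-fold when each array was set to its median (1.13).

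IL1B encodes IL-1β, which is made as an inactive precursor and cut by caspase-1. The signal of IL1B was 825 ± 82.7 on the vehicle array, 1422 ± 142 on the cordyceps array and 89.4 ± 10.2 on the sunitinib array. As for IL1A, the cordyceps array was the highest and the sunitinib array the lowest. IL1B was 2.06-fold higher with cordyceps (log2 ratio 1.04, 95% limit 0.40) and 4.39-fold lower with sunitinib (log2 ratio −2.13, 95% limit 0.43). With cordyceps, 403 of 14786 genes had a higher ratio, and with sunitinib, 172 of 14912 had a lower one. The call with cordyceps lay just past the 2-fold limit. It was lost under quantile normalization (0.96), normexp background correction (0.91) and the unscaled values of the series (0.79), while the direction was the same.

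Set against each other, the sunitinib array was below the cordyceps array by more than the reported error for both cytokines, with log2 differences of −3.72 for IL1A (95% limit 0.42) and −3.17 for IL1B (95% limit 0.43). The same held for the receptor chain IL1RAP, at −1.22 (95% limit 0.42). The 2 comparisons with vehicle share the vehicle array, so their values are given side by side and not as separate evidence.

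**Figure D1:**
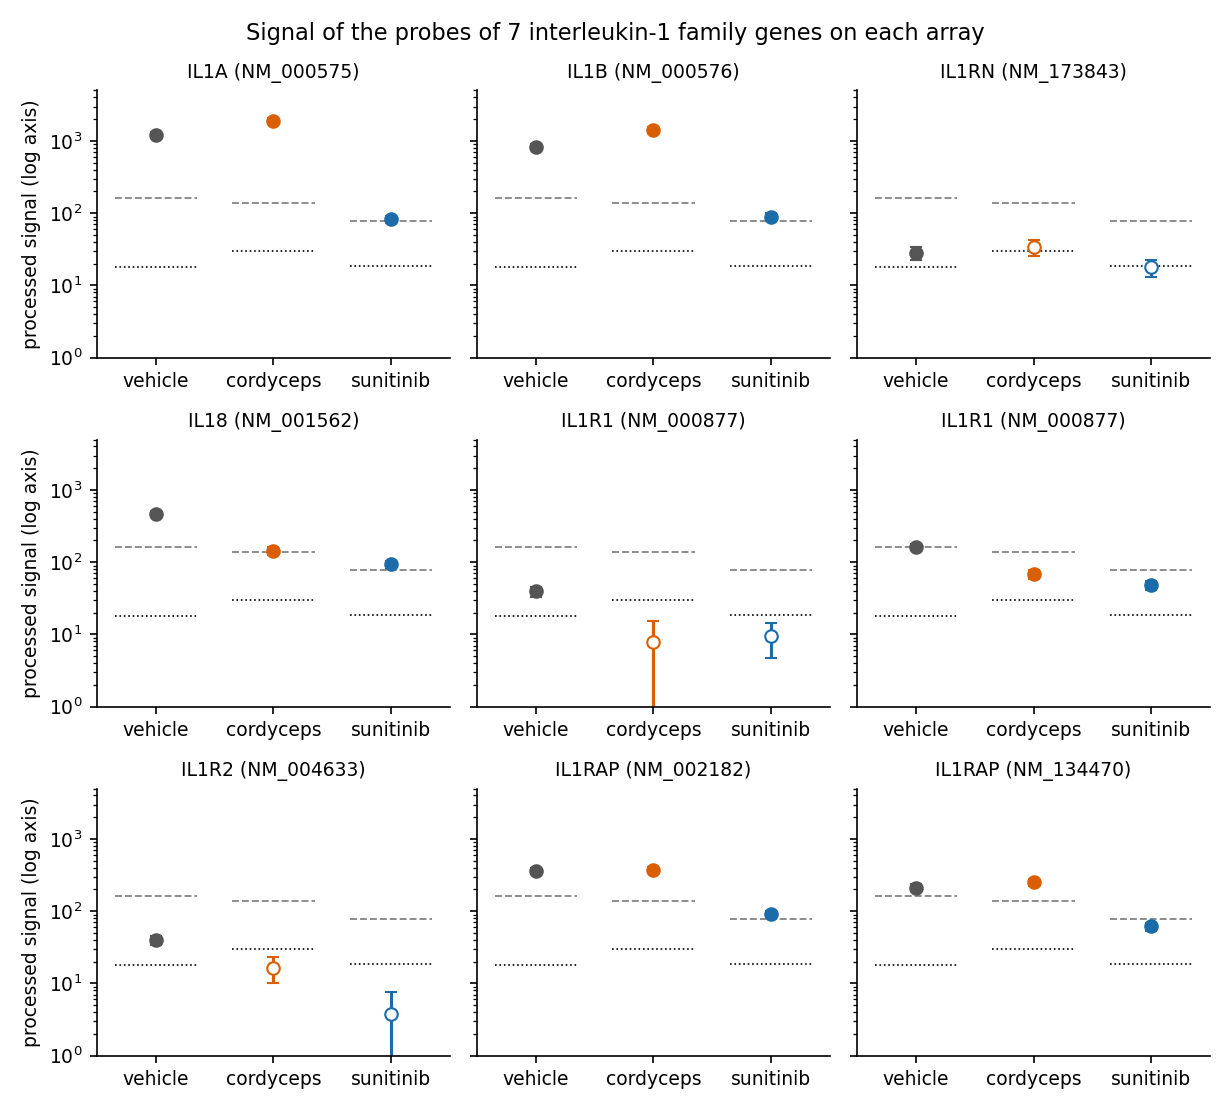
Processed signal (arbitrary units, log axis) of the 9 probes, from 7 members, that any array showed well above background, with 1 point per array and bars for the error the software reported. Filled points were well above background and open points were not, dotted lines mark the lowest signal well above background on that array, and dashed lines mark the 75th percentile to which the array was set. IL1A and IL1B were lowest on the sunitinib array, at 82.1 and 89.4, and IL18 was highest on the vehicle array, at 471.

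IL18 encodes another cytokine cut by caspase-1, which acts on T and NK cells through a receptor of its own. The IL18 signal was 471 ± 47.3 on the vehicle array, 144 ± 16.5 on the cordyceps array and 93.6 ± 10.6 on the sunitinib array. It was thus below vehicle on both treated arrays. IL18 was 2.74-fold lower with cordyceps (log2 ratio −1.46, 95% limit 0.43) and 2.39-fold lower with sunitinib (log2 ratio −1.26, 95% limit 0.43). With cordyceps, 118 of 14786 genes had a lower ratio, and with sunitinib, 595 of 14912 did. The sunitinib ratio lay within the middle 95% of genes measured on both arrays, whose lower end was −1.39. The treated arrays were not told apart for IL18 by the reported error. After scaling, the log2 level of the sunitinib array was above that of the cordyceps array by 0.20, with a 95% limit of 0.46. IL18 was therefore lower where IL1B, the other caspase-1 substrate, was higher, on the cordyceps array.

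IL33, an alarm cytokine held in the nucleus, and IL36G, an epithelial ligand of the IL-36 receptor, did not rise well above background anywhere. The signal of IL33 was at most 6.28 on any array, and that of IL36G at most 7.88. For these genes no ratio was computed.

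IL1RN, the receptor antagonist, was measured by 2 probes. The signal of one was 28.1 ± 5.41 on the vehicle array, and 33.7 and 17.9 on the cordyceps and sunitinib arrays, where it was not well above background. The other probe was not well above background anywhere, with signals from 3.95 to 6.98. No fold could be given for IL1RN. After each array was set to its percentile, the lowest signal well above background on either treated array lay above the vehicle level of the probe. The probe could therefore not be called lower. A call as higher needed a treated signal well above background, which it did not have.

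IL1R1, the signalling receptor of IL-1α and IL-1β, had signals of 164 ± 17.1, 68.1 ± 10.2 and 48.1 ± 6.71 on the vehicle, cordyceps and sunitinib arrays by the probe used for its ratio. Vehicle was the highest array. After scaling, the sunitinib array lay above the cordyceps array, by a log2 difference within the error (0.32, 95% limit 0.58). IL1R1 was 2.02-fold lower with cordyceps (log2 ratio −1.01, 95% limit 0.52), just past the limit, and had a log2 ratio of −0.70 with sunitinib (95% limit 0.49). Its other probe was well above background with vehicle alone, at 39.4 ± 6.10, against 7.75 with cordyceps and 9.53 with sunitinib, that is at least 1.09-fold and at least 1.02-fold lower. The call with cordyceps was lost when each array was set to its median (−0.79), under quantile normalization (−0.97), with the bright area left out (−0.97), as a mean of both probes (−0.57) and under normexp (−0.38).

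IL1R2, the decoy receptor, had a signal of 39.9 ± 5.50 on the vehicle array and was not well above background on the others, at 16.5 with cordyceps and 3.78 with sunitinib. It was at least 1.11-fold lower with cordyceps and at least 1.03-fold lower with sunitinib, bounds that do not reach 2-fold. Its vehicle level was so close to the floor of the treated arrays that no bound past 2-fold was possible.

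IL1RAP, the accessory chain shared by the receptors of IL-1, IL-33 and IL-36, was measured by 3 probes. By the probe used for its ratio, the signals were 361 ± 36.3, 377 ± 38.3 and 91.5 ± 10.1 on the vehicle, cordyceps and sunitinib arrays. The vehicle and cordyceps arrays did not differ beyond the reported error (log2 ratio 0.32, 95% limit 0.40), and sunitinib lay below both. The log2 ratio with sunitinib was −0.91 (95% limit 0.42), or 1.87-fold lower, past the error and short of 2-fold. The second probe, for another transcript, had signals of 213 ± 21.8, 253 ± 26.5 and 61.8 ± 7.79, with log2 ratios of 0.51 (95% limit 0.41) and −0.71 (95% limit 0.46). The third, with signals from 4.39 to 7.27, was nowhere well above background. IL1RL1, the receptor of IL-33, was also not detected, by either of its 2 probes (signals from 3.93 to 7.02).

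Over all members, 7 of 10 were well above background on the vehicle array and 5 on each treated array, where IL1A, IL1B, IL18, IL1R1 and IL1RAP were detected throughout. With cordyceps, 1 of the 7 members compared was more than 2-fold higher (IL1B) and 2 were lower (IL18 and IL1R1), against 2.99% higher and 2.76% lower among all genes compared. The members' median log2 ratio was 0.00, which is the value set for IL1RN, a gene without a ratio. The median of all genes was 0.00 too, a value at which genes without a ratio also stand. The match of these medians therefore says nothing of the members. Of the 5 members with a measured ratio, the middle one was IL1RAP, at 0.32. When only genes detected on each of the 2 arrays were kept, the median of all genes was 0.01. With sunitinib, none of the 7 was higher and 3 were lower (IL1A, IL1B and IL18), against 6.5% higher and 6.53% lower among all genes. The median of the members was −0.91, beside 0.00 for all genes. The medians over all 7 members compared hold IL1R2 at its bound and IL1RN at 0. IL1RN and IL1R2 could not have been called lower in either comparison by this rule, so the counts of lower genes rest on the other 5. A call as higher needed a treated signal well above background, which neither gene had. The counts describe the members and support nothing further.

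**Figure D2:**
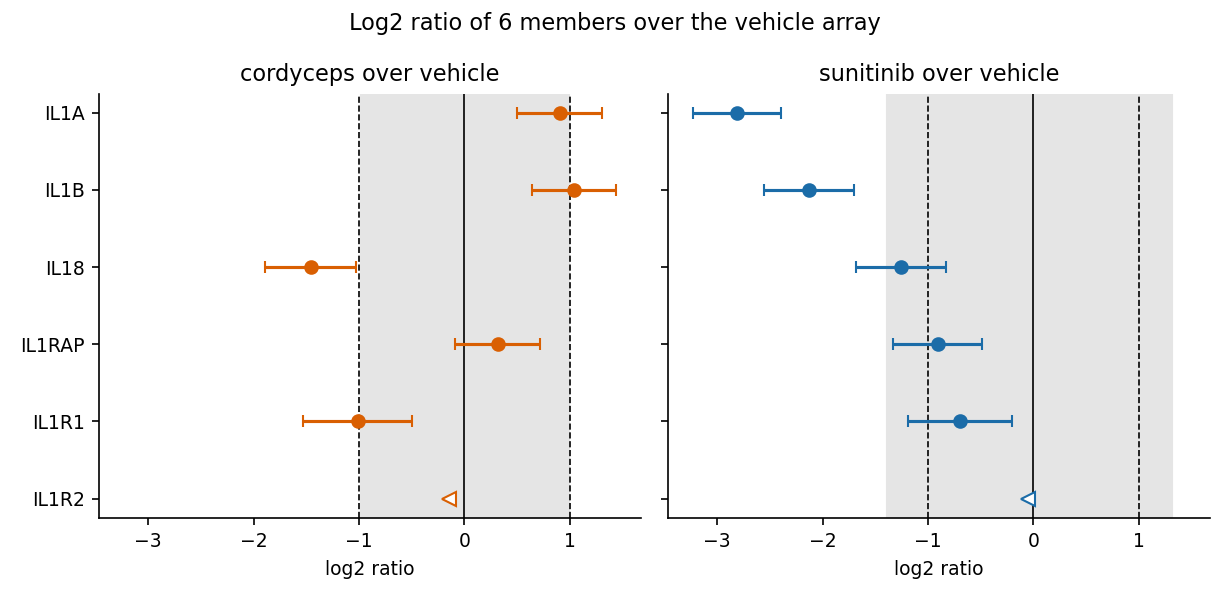
Log2 ratio of 6 members over the vehicle array for cordyceps (left) and sunitinib (right), with bars for the 95% limit of the reported error, dashed lines at 2-fold and a grey band for the middle 95% of genes measured on both arrays. Open triangles are bounds. With sunitinib IL1A and IL1B lie below the band, at −2.81 and −2.13, and with cordyceps IL18 lies below it at −1.46, while IL1R1 (−1.01) and IL1B (1.04) lie at its edges.

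By the distance between pairs of ratios with vehicle, over 3 arrays and 12496 genes detected on all of them, the genes nearest to IL1A were NUSAP1 (distance 0.17 on the log2 scale), CDCA8 (0.19) and PRC1 (0.22). Those nearest to IL1B were CDC20 (0.14), WDR62 (0.17) and CDKN3 (0.22). Those nearest to IL1RAP were SMN1, LAMB3 and RRP9, at 0.013 to 0.018, and SMN1 has a near-identical copy whose RNA its probe may share. Nearness over 3 arrays is a description of these arrays alone.

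The other 12 genes of the family were described in the same way. Of these, 5 were detected on some array, that is well above background, and none of them passed 2-fold in either comparison. SIGIRR, a receptor that dampens IL-1 and Toll-like receptor signalling, had signals of 2009, 1654 and 1237 on the vehicle, cordyceps and sunitinib arrays, with log2 ratios of −0.02 and 0.37. IL18RAP, the accessory chain for IL-18, had signals of 83.3, 60.6 and 46.1, with log2 ratios of −0.20 and 0.22. IL18R1, the chain that binds IL-18, gave a log2 ratio of 0.12 with cordyceps and was at least 1.46-fold lower with sunitinib, where it was not well above background. IL18BP, which neutralizes IL-18, was detected with vehicle alone, at 36.9. IL37, a ligand that restrains inflammation, had a log2 ratio of 0.69 with cordyceps (95% limit 0.71) and no ratio with sunitinib.

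Cytokine processing was described by 20 genes of the inflammasomes and their proteases, of which 15 could be compared. With cordyceps none passed 2-fold (median log2 ratio −0.02). With sunitinib 1 did, NLRP3, the sensor of the best-known inflammasome. It had signals of 132 with vehicle, 146 with cordyceps and 15.2 with sunitinib, where it was not well above background, so that it was at least 3.42-fold lower with sunitinib. Among all genes compared, 6.53% were lower with sunitinib. Under normexp, 0 genes of this list were lower. CASP1, the protease that cuts IL-1β and IL-18, and PYCARD, its adaptor, were picked after their values were seen. The log2 ratios of CASP1 were −0.11 and −0.25, and those of PYCARD −0.14 and 0.36, all within their 95% limits.

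Of 20 genes of receptor-proximal signalling, all were compared. With cordyceps 1 was lower, MAP3K8, a kinase that feeds the ERK pathway, with a log2 ratio of −1.95 (95% limit 0.47). MYD88, the adaptor, lay just short of the 2-fold limit, with a log2 ratio of −0.98 (95% limit 0.43) and was singled out after its value was seen. With sunitinib 2 were lower, MAP3K8 (−1.18) and the kinase IRAK2 (−1.01), and 2 were higher, PELI2 (1.39) and PELI3 (1.31), ubiquitin ligases that act on IRAK kinases. The IRAK2 call lay just past the 2-fold limit. The genes of this list that were higher with sunitinib numbered 1 with median scaling, and 0 with normexp and with unscaled values. Those lower with sunitinib numbered 3 with median scaling, 1 with normexp and 11 with unscaled values, where 8007 of all 14913 genes were lower. The list's counts stand beside 2.76% of all genes lower with cordyceps, and 6.5% higher and 6.53% lower with sunitinib, and its median log2 ratios were −0.04 and −0.02.

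Genes that IL-1 is known to induce formed the longest list. Of its 37 genes, which tumour necrosis factor and other NF-κB stimuli induce as well, 34 could be compared. With cordyceps, 4 were higher and 3 lower (median log2 ratio −0.23), beside 2.99% and 2.76% of all genes compared. The highest were the collagenase MMP1 (1.84), the siderophore-binding protein LCN2 (1.79) and the pentraxin PTX3 (1.56). The lowest were the chemokine CXCL6 (−1.60), the adhesion molecule VCAM1 (−1.47) and the chemokine CCL2 (−1.27). The list thus moved both ways on the cordyceps array.

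With sunitinib, 24 of the 34 were lower and 1 was higher, with a median log2 ratio of −1.39, beside 6.53% lower and 6.5% higher among all genes compared. The lowest were the growth factor CSF2 (−5.30), the defensin DEFB4A (−4.31) and CCL2 (−3.75). The signal of CSF2 was 2282 with vehicle and 27.4 with sunitinib. Picked after its value was seen, the cordyceps signal of CSF2 was 3876, a log2 ratio of 1.02. Also picked after their values were seen, the cytokine IL6 had log2 ratios of −0.65 with cordyceps and −2.79 with sunitinib, and the chemokine CXCL8 had 0.23 and −3.23. MMP1 was the one gene of the list that was higher with sunitinib (1.01), followed by RELB (0.19) and C3 (0.07), a subunit of NF-κB and a complement protein. With median scaling, unscaled values or normexp, 0 genes of the list were higher. IRAK2 stands in this list and in that of signalling.

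**Figure D3:**
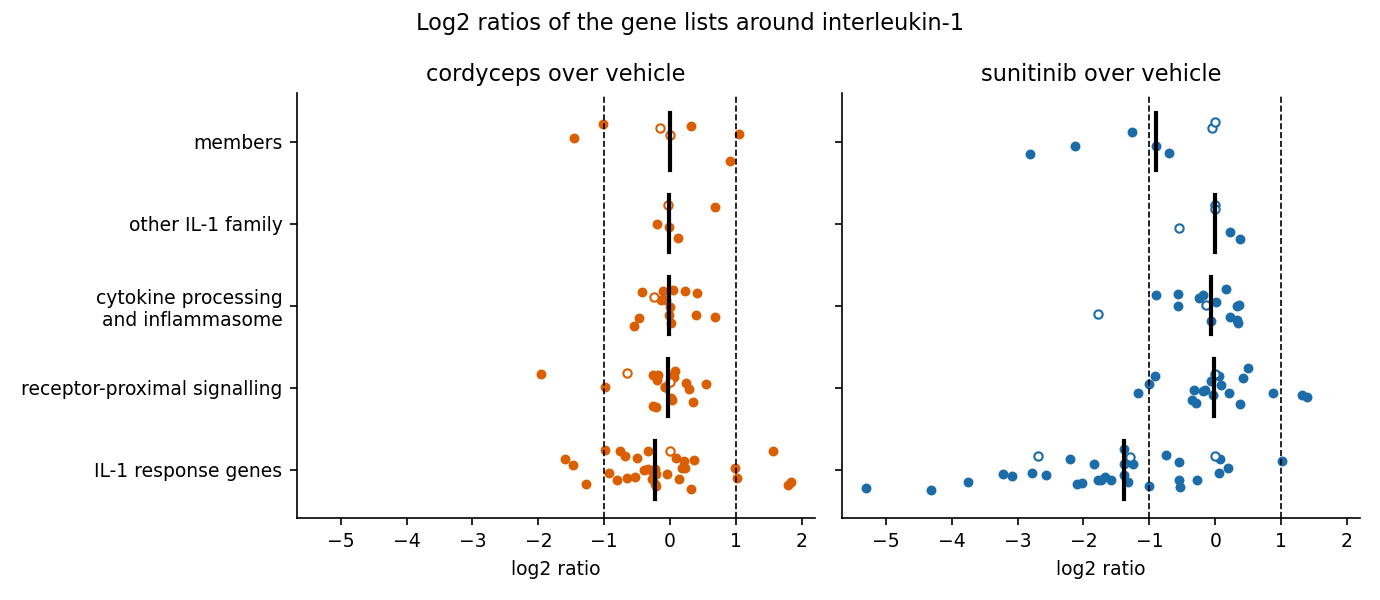
Log2 ratio over vehicle of the members and of 4 related gene lists, for cordyceps (left) and sunitinib (right), with 1 point per gene compared, scattered vertically for legibility. Filled points were measured on both arrays, open points are bounds or, where no ratio could be had, stand at 0, black bars are medians, and dashed lines mark 2-fold. The IL-1 response genes are centred on −1.39 with sunitinib and on −0.23 with cordyceps.

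Markers of other cell types moved beside these values. Of 12 leukocyte markers, 7, 3 and 5 were well above background on the vehicle, cordyceps and sunitinib arrays, and their summed signal relative to the 75th percentile was 9.22, 7.18 and 8.68. The pan-leukocyte marker PTPRC had signals of 18.4, 12.4 and 45.7 by 1 of its 5 probes, which made it 5.23-fold higher with sunitinib. That vehicle signal was close to the floor of 18.2. Another probe, used with cordyceps, gave no ratio (vehicle 26.6, cordyceps 20.8). FCER1G (531, 460 and 396) and TYROBP (78.3, 50.1 and 34.15) were detected on all arrays and did not pass 2-fold. Their log2 ratios were 0.05 and 0.65, and −0.39 and −0.12. The myeloid integrin ITGAM was at least 2.02-fold lower with cordyceps, and CD163, CD3E, MS4A1 and NKG7 were among those nowhere well above background. CD14, which monocytes and some epithelial cells express, was 2.84-fold lower with sunitinib, at 116 against 693. Of 9 endothelial and fibroblast markers, the summed signal was 42.5 with vehicle, 14.3 with cordyceps and 13.6 with sunitinib, with its difference carried mostly by COL1A1 (5308, 1069 and 385) and DCN (707, 169 and 31.2), while PECAM1 and KDR were nowhere well above background. The endothelial protein VWF was at least 2.51-fold lower with sunitinib, whereas PDGFRB (log2 ratios −0.19 and 0.66) and CDH5 (−0.19 and 0.23) did not pass 2-fold in either comparison. The part of these markers in the members' ratios was not tested. In RNA of a whole culture, fewer cells that make a transcript and less of it per cell cannot be told apart.

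**Figure D4:**
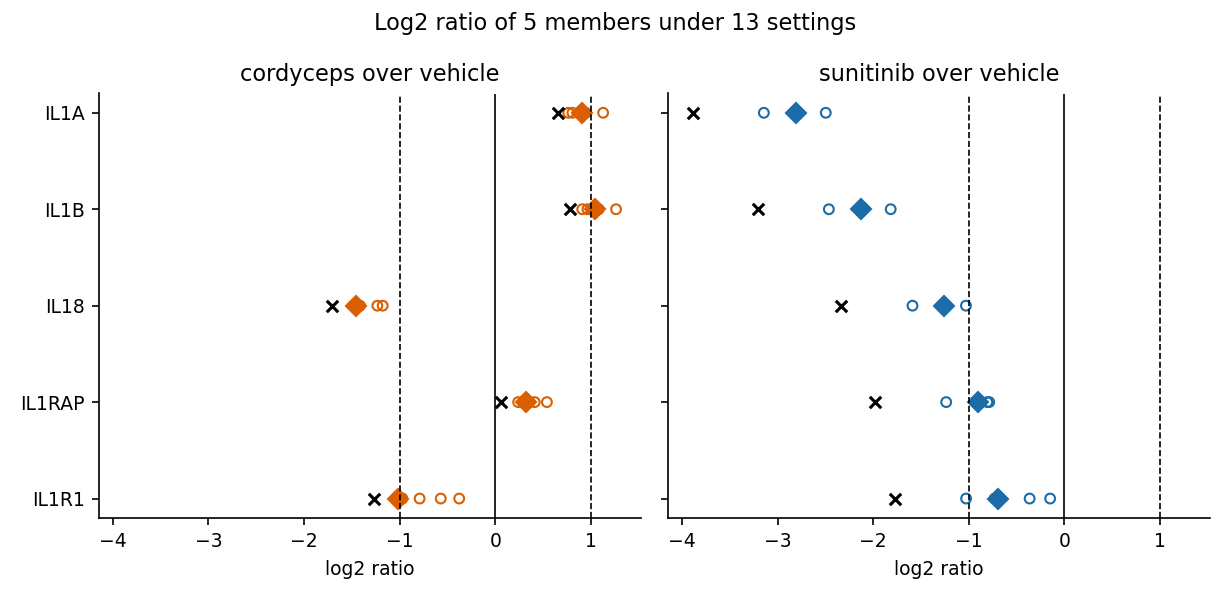
Log2 ratio over vehicle of the 5 members measured on all arrays, as reported (diamonds), under 11 other ways of processing (circles) and from the unscaled values of the series (crosses), with dashed lines at 2-fold. With sunitinib, IL1A, IL1B and IL18 stay beyond 2-fold throughout, at −2.50, −1.82 and −1.03 or lower, while with cordyceps IL1A, IL1B and IL1R1 lie on either side of the limit.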

How the data were processed

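For each of 3 single-colour arrays of TK-10 cells, the authors deposited the output of Agilent Feature Extraction 11.5.1.1, in which values are intensity on a linear scale, background-subtracted and detrended (processed signal). A series table deposited beside it held the same intensity, unscaled, for 99.87% or more of the probes (within 0.01%). The grid names build hg19. The methods in the paper describe another array and a ratio of 2 colours, so the 2-fold limit alone was taken from them. The arrays shared 1 slide and 1 scan.

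After control and outlier spots were dropped, the mean signal of each probe was divided by the 75th percentile of its array and put on the log2 scale. Between 37.8% and 45.5% of 58201 probes were well above background. Of these probes, 31104 were named by accession through RefSeq (GRCh38.p14, names and gene order only). The brightest probe of a gene over the arrays compared was used. Where the dim side was not well above background, its signal was replaced by the lowest signal well above background on that array (18.2 on the vehicle, 30.2 on the cordyceps and 18.3 on the sunitinib array) or by its own if higher, and the ratio is a bound. Genes whose bound did not exceed 1 have no ratio and stand at 0 in medians. Error limits are 95%, from the 2 reported signal errors. The number of arrays limits the precision. The members, gene lists and alternatives were chosen with earlier results of these data known, and the lists were written by hand.

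The text names all members, every gene of a list past 2-fold where there were at most 5 (otherwise the 3 highest and 3 lowest measured on both arrays), the detected genes of the other family list, and the 3 nearest genes of the 3 members with the highest mean signal. The 12 alternatives changed the scaling, source of values, background correction (normexp, offset 50), filter, choice of probe, outlier spots, error limit and bright area. A bright area was made of windows of 7 by 7 spots whose median log2 signal relative to the brighter other array was over 1. Only that of the cordyceps array was left out. Python 3.11.15, numpy 2.4.6, pandas 2.3.3, R 4.3.3 and limma 3.58.1 were used, and the calculation of ratios was tested on simulated arrays.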

Additional observations from a re-analysis of the deposited data

How the results depend on the processing

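Under 12 alternatives, the members' ratios gave 140 values, of which 133 moved by less than the 95% limit of their reported error, 7 moved further and 0 changed sign. The 7 came from the unscaled values and normexp. The alternatives of filter and error limit cannot change the ratio of a probe measured on both arrays. The mean of probes cannot change that of a gene with 1 probe. The count of 133 was thus partly fixed in advance. IL1A, IL1B and IL18 stayed more than 2-fold lower with sunitinib, and IL18 with cordyceps, under all 12. With cordyceps, the number of members higher (1 as reported) was 2 when arrays were set to their medians, 2 with no filter on dim probes, and 0 under quantile normalization, the unscaled series values and normexp. The number lower (2) was 1 with median scaling, quantile normalization, normexp, the mean of probes, and the bright area left out, and 3 without a filter. With sunitinib, the number lower (3) was 5 with median scaling, which adds IL1R1 and IL1RAP, 6 with the unscaled values and 4 without a filter, and the number higher (0) was 3 without a filter (IL33, IL36G and IL1RL1, all not well above background). In the 4 related lists, 5, 15, 20 and 34 genes were compared, with IRAK2 in more than 1 list. With sunitinib, 29 of their genes passed 2-fold, beside 969 higher and 974 lower of all 14912 genes compared. With unscaled values 52 did, beside 162 higher and 8007 lower of all 14913. With cordyceps 8 did, beside 442 higher and 408 lower of all 14786.

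Counts over all genes moved more. With cordyceps, 442 higher and 408 lower (52.0% higher) became 746 and 223 with median scaling (77.0%), 274 and 831 unscaled (24.8%), 1636 and 975 without a filter (62.7%), and 192 and 187 with normexp. With sunitinib, 969 and 974 (49.9%) became 532 and 1937 (21.5%), 162 and 8007 (2.0%), 6218 and 1513 (80.4%), and 330 and 842 (28.2%). The median log2 ratio of all genes was 0.18 with cordyceps and −0.31 with sunitinib under median scaling, −0.24 and −1.06 unscaled, and 0.14 and 0.24 without a filter. The cause was not tested, other than that the unscaled values keep the difference in brightness between arrays. No paired analysis was possible because each condition had 1 array. Signals near background limit IL1RN, IL1R2 and the second IL1R1 probe to bounds or no ratio.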
